A study of Mus musculus with 14 samples.

Results

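The small leucine-rich proteoglycans are secreted proteins that decorate collagen fibrils, and 9 of their genes were examined here in the pressure-overloaded mouse heart. They are Dcn (decorin), Bgn (biglycan), Aspn (asporin), Lum (lumican), Fmod (fibromodulin), Prelp (proline and arginine rich end leucine rich repeat protein), Omd (osteomodulin), Ogn (osteoglycin, also called mimecan) and Podn (podocan). The members were chosen by gene name from a table of 49315 genes. The rule itself uses no measured value, but the choice was made with earlier results of these data known. All 9 were among the 15292 genes that had enough reads to be tested.

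The study asked how a gain-of-function pacemaker channel affects the heart under pressure overload. Poly(A) RNA of left ventricles was sequenced from male mice operated at 10 to 12 weeks of age and studied 5 weeks later. HCN4F mice carry a knock-in in exon 4 of Hcn4 that exchanges a tyrosine for a phenylalanine, and wild-type (WT) mice served as controls. The knock-in is in the germline and so not restricted to the heart, and whether 1 or both alleles carried it was not given in the sources used here. TAC is transverse aortic constriction, a narrowing of the aorta set here with a 27-G needle, and Sham is the operation without the constriction. The 4 groups were WT-Sham (wild type, Sham operation, n = 4), HCN4F-Sham (knock-in, Sham operation, n = 4), WT-TAC (wild type, constriction, n = 2, replicates 2 and 3) and HCN4F-TAC (knock-in, constriction, n = 4). WT-TAC thus holds 2 of the 4 replicates of the design, and the others were not analysed here. Replicates are biological replicates by the study's design text.

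A small leucine-rich proteoglycan has a core of leucine-rich repeats that binds collagen, and most members carry chondroitin, dermatan or keratan sulfate chains. In the heart they are made mainly by fibroblasts, and they set the width and spacing of collagen fibrils. Several also bind growth factors and receptors: decorin holds transforming growth factor beta in the matrix, and biglycan freed from the matrix can act on Toll-like receptors.

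Each library held 22309914 to 35210939 reads counted on genes. Levels are given as CPM, read counts brought to a common library size with TMM scaling, which corrects for differences in composition between libraries. At these depths 3 reads corresponded to 0.0859 to 0.137 CPM, a limit that covers counting error only. Summed CPM of 8 cardiomyocyte markers was 61037 to 80995 in the libraries, with 77455 to 80995 in WT-Sham, 68123 to 76396 in HCN4F-Sham, 76907 and 78314 in WT-TAC and 61037 to 69006 in HCN4F-TAC. Mitochondrial genes took 13.9% to 18.6% of the reads in HCN4F-TAC, 18.38% and 20.03% in WT-TAC and 17.1% to 23.1% in the Sham libraries. HCN4F-TAC replicate 2 stood apart in 3 of 5 atrial markers, with Myl4 at 17.4, Myl7 at 9.91 and Sln at 3.79 CPM against at most 4.07, 0.694 and 0.285 CPM in the other libraries. The other two were not raised there, with Nr2f1 at 3.85 CPM (3.21 to 5.71 elsewhere) and Stard10 at 10.5 CPM, the lowest of all libraries (10.9 to 31.6 elsewhere). HCN4F-Sham replicate 2 stood apart in epicardial markers, which summed to 15.9 CPM there and to 4.77 to 11.1 CPM in the other libraries, with Upk3b at 4.29 and Msln at 2.56 CPM. It also held the highest value of all Sham libraries for Bgn, Dcn, Lum, Prelp, Aspn and Fmod. HCN4F-TAC replicate 4 came next in Upk3b and Msln, with 1.26 and 1.10 CPM against at most 0.868 and 0.434 CPM in the remaining libraries. The part of epicardial tissue in the values of both libraries was not tested. Counts after TAC in HCN4F cover members, collagens, interacting, chain-building and processing genes and fibroblast markers. They are given with and without HCN4F-TAC replicate 2 or HCN4F-Sham replicate 2. List counts without HCN4F-TAC replicate 4 are not given, and sums, shares and correlations include all libraries.

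Per kilobase of exon, decorin was the most abundant member in WT-Sham hearts, with 43.0 ± 1.30 CPM per kb (mean ± SD, n = 4). Biglycan followed with 25.2 ± 1.61 CPM per kb, then osteoglycin with 21.8 ± 0.943, Prelp with 11.1 ± 0.776 and lumican with 8.77 ± 0.776 CPM per kb. These neighbours did not overlap between their lowest and highest library. Asporin stood at 5.49 ± 0.338 and podocan at 2.56 ± 0.107 CPM per kb. Fibromodulin and osteomodulin were the least abundant, with 0.297 ± 0.260 and 0.244 ± 0.0752 CPM per kb, and their libraries overlapped. In HCN4F-TAC hearts biglycan had the highest mean, 63.6 ± 17.5 against 47.8 ± 6.32 CPM per kb for decorin (n = 4), although the libraries of these neighbours overlapped. Fibromodulin reached 3.13 ± 2.18 CPM per kb there and overlapped with podocan at 2.76 ± 0.419.

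The members lie at 5 places in the genome (GRCm38, GENCODE gene models). Aspn, Omd and Ogn follow each other on chromosome 13, on the same strand, with gaps of 14.9 and 15.2 kb, and Ecm2 lies 11.7 kb before Aspn. Dcn and Lum are neighbours on chromosome 10 with a gap of 47.0 kb. Prelp and Fmod are neighbours on chromosome 1, on opposite strands, 115.8 kb apart. Podn lies on chromosome 4 and Bgn on chromosome X. Aspn rose and Ogn fell with TAC in both genotypes, whereas the neighbours Prelp and Fmod both rose in HCN4F.

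The promoters of 4 members are shown, those of Bgn and Fmod because they were called after TAC in HCN4F, and those of Aspn and Ogn because they passed the test after TAC in both genotypes. Each is the 250 bases before the RefSeq start (GRCm38.p6), on the strand of the gene, with letters of searched motifs in capitals. RefSeq promoter entries were found for 7 of the 9 members, and those of Dcn and Lum were not analysed here.
Bgn: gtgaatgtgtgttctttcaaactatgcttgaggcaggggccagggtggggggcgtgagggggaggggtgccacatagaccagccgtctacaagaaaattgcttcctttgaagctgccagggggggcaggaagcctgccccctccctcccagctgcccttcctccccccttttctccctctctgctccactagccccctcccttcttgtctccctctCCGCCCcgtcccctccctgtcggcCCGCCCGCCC
Fmod: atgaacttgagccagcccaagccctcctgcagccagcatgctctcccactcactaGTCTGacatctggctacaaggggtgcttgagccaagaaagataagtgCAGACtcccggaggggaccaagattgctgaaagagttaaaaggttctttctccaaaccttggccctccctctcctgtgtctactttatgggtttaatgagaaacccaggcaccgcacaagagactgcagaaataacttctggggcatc
Aspn: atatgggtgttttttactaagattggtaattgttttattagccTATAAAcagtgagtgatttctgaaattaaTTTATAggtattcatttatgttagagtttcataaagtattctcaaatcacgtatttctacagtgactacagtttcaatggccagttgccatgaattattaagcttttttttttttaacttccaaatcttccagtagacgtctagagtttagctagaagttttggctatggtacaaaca
Ogn: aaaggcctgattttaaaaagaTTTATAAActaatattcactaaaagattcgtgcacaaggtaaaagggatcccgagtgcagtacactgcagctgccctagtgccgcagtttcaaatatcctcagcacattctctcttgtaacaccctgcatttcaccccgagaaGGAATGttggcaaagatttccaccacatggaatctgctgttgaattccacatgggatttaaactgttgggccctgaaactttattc
The windows are chrX:73483351-73483600 for Bgn, chr1:134037004-134037253 for Fmod, chr13:49544193-49544442 for Aspn and chr13:49607765-49608014 for Ogn, all on the plus strand. Both strands were searched for the letters of a GC box, a SMAD box, a TATA box, a TEAD site and an AP-1 site.

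The Bgn window was 64.4% G and C and held the GC box letters, GGGCGG, at 3 positions, all on the minus strand, of which the 2 nearest the start overlap. Of all 32851 promoter windows of the same length, 32.7% held these letters. The Fmod window (51.2% G and C) held the SMAD box letters, GTCTG, once on each strand, as did 42.2% of all windows at least once. The Aspn window was only 30.0% G and C and held the TATA box letters, TATAAA, at position -207 and, on the minus strand, at -178 from the start, and 12.4% of all windows hold them. The Ogn window (42.0% G and C) held overlapping TATA box matches on both strands, and 1 match of the TEAD letters, GGAATG, which 12.6% of all windows hold. This window ends at base 49608014, whereas the GENCODE gene starts at 49608046. Unlike for Bgn, Fmod and Aspn, the sequence after its RefSeq start was found in no GENCODE transcript of the gene. The AP-1 letters, TGANTCA, present in 6.75% of all windows, were in none of the members' windows. These matches describe the letters only.

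TAC in HCN4F hearts was accompanied by more biglycan, fibromodulin, Prelp, asporin and lumican mRNA and less osteoglycin mRNA, whereas decorin, osteomodulin and podocan did not pass the test. Biglycan was 2.42-fold and fibromodulin 7.19-fold higher, and the other 3 were 1.43- to 1.65-fold higher. Thus 6 of the 9 members had an adjusted p under 0.05 (edgeR's quasi-likelihood test, Benjamini-Hochberg adjustment over all tested genes), where 13.6% of all tested genes did. For the upward direction it was 5 of 9 members beside 7.20% of all genes, and for the downward direction 1 of 9 beside 6.41%. With an absolute log2 fold change above 1 asked for as well, 2 members were called, Bgn and Fmod, beside 2.75% of all genes. The call of Fmod rests on the choice of test and samples, because edgeR on the compared groups alone (adjusted p = 0.0535) or with no filter on low counts (0.0604) called only Bgn, beside 2.18% and 1.53% of all genes called in these fits. The test glmTreat, edgeR's test against a log2 fold change of 1, called 0 members, beside 0.203%. Without HCN4F-TAC replicate 2, 4 members rose and 1 fell by the adjusted p, beside 4.88% and 3.86% of all genes. Without HCN4F-Sham replicate 2 it was 5 and 1, beside 6.24% and 5.33%. The median log2 fold change was 0.60 over the members and -0.01 over all tested genes. In bulk tissue, more cells of a type and more RNA per cell cannot be told apart.

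**Figure D1:**
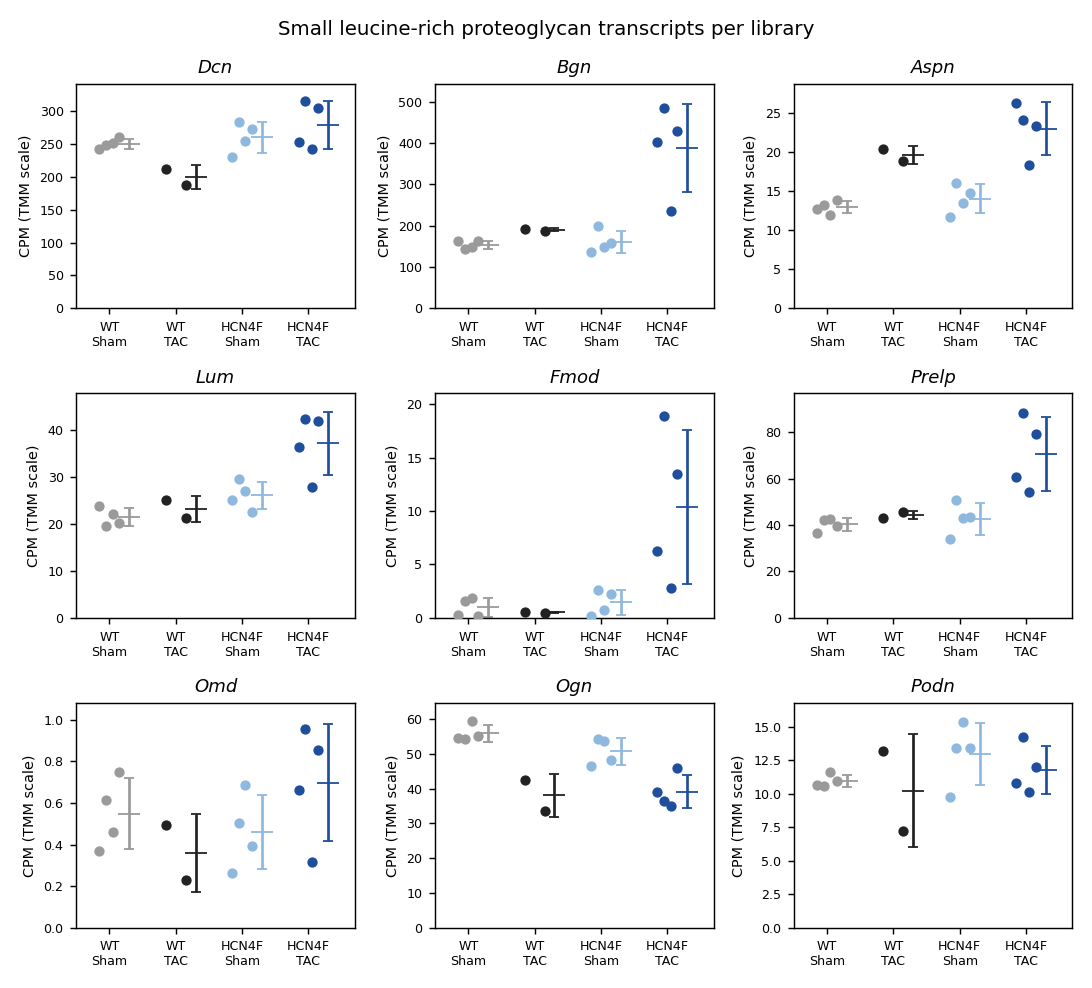
Transcript level of each proteoglycan gene in every library (points, CPM on the TMM scale, linear axis from 0), with group mean and SD beside them, for WT-Sham (grey), WT-TAC (black), HCN4F-Sham (light blue) and HCN4F-TAC (dark blue). Biglycan libraries of HCN4F-TAC sit between 236 and 486 CPM, above all other libraries, whereas osteoglycin is lower after TAC in both genotypes.

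Biglycan, a close relative of decorin with a pair of glycosaminoglycan chains, gave 402, 486, 236 and 428 CPM in HCN4F-TAC replicates 1 to 4. In HCN4F-Sham replicates 1 to 4 it was 136, 199, 148 and 159 CPM. Every HCN4F-TAC library was above every Sham library, and replicate 3 was the lowest of its group. The log2 fold change was 1.27 (standard error 0.18, edgeR adjusted p = 0.000445). It was 1.14 without HCN4F-TAC replicate 2, the library with atrial transcripts (adjusted p = 0.00142), and 1.45 without replicate 3 (adjusted p = 4.4e-07). Without HCN4F-Sham replicate 2, the library with the most epicardial transcripts, it was 1.39 (edgeR adjusted p = 0.000756).

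Fibromodulin, which binds collagen and guides its cross-linking, was a low transcript with the largest fold change and the widest spread. It was 6.30, 18.9, 2.76 and 13.5 CPM in HCN4F-TAC replicates 1 to 4, from 78 to 573 reads. In HCN4F-Sham it was 0.226, 2.65, 0.723 and 2.204 CPM, from 6 to 73 reads. The groups did not overlap, but the gap between HCN4F-TAC replicate 3 and HCN4F-Sham replicate 2 was only 2.76 against 2.65 CPM. The log2 fold change was 2.85 (standard error 0.76, 95% interval 1.19 to 4.51, edgeR adjusted p = 0.0289). Without HCN4F-TAC replicate 2, which held the highest value and the atrial transcripts, it was 2.37 and the adjusted p was 0.0872. The call was also lost without HCN4F-TAC replicate 4 (log2 fold change 2.70, edgeR adjusted p = 0.0650) and without HCN4F-Sham replicate 1 (2.49, adjusted p = 0.0509) or replicate 3 (2.61, adjusted p = 0.0681). Without HCN4F-Sham replicate 2 it was 3.23 (edgeR adjusted p = 0.0411). The part of atrial or epicardial tissue in this difference was not tested.

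Prelp, which binds both collagen and heparan sulfate chains, was 60.7, 88.4, 54.3 and 79.0 CPM in HCN4F-TAC replicates 1 to 4 and 33.95, 50.8, 42.9 and 43.3 CPM in HCN4F-Sham. Its groups did not overlap, and the log2 fold change was 0.73 (standard error 0.14, edgeR adjusted p = 0.00333). Asporin, a member of the decorin class that carries a stretch of aspartates in place of the usual chain, was 26.3, 24.1, 18.3 and 23.3 CPM after TAC. In HCN4F-Sham it was 11.7, 16.1, 13.5 and 14.7 CPM. All 4 TAC libraries were higher, and the log2 fold change was 0.72 (standard error 0.11, edgeR adjusted p = 0.000598).

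Lumican, a keratan sulfate proteoglycan that limits fibril width, was 36.5, 42.4, 27.9 and 41.9 CPM in HCN4F-TAC and 25.1, 29.7, 27.01 and 22.7 CPM in HCN4F-Sham. Here the groups overlapped, because HCN4F-TAC replicate 3 lay below HCN4F-Sham replicate 2. The log2 fold change was 0.51 (standard error 0.12, edgeR adjusted p = 0.0103). Osteoglycin, whose processed form supports collagen fibril formation, was 39.1, 36.5, 35.04 and 45.8 CPM in HCN4F-TAC against 46.3, 54.4, 53.7 and 48.3 CPM in HCN4F-Sham. It fell in all 4 libraries below the Sham range, although HCN4F-TAC replicate 4 came within 1 CPM of HCN4F-Sham replicate 1. The log2 fold change was -0.37 (standard error 0.09, edgeR adjusted p = 0.0129). Without replicate 2 of HCN4F-TAC, Prelp, asporin, lumican and osteoglycin still had adjusted p-values of 0.0117, 0.00309, 0.0417 and 0.0444 in the edgeR test.

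Decorin, the most abundant member in Sham hearts, was 253, 316, 242 and 305 CPM in HCN4F-TAC and 230, 283, 255 and 273 CPM in HCN4F-Sham. These ranges overlapped, and the log2 fold change of 0.10 (95% interval -0.09 to 0.29) had an edgeR adjusted p of 0.500. Podocan ranged from 10.1 to 14.2 CPM after TAC and from 9.79 to 15.3 CPM in Sham, with a log2 fold change of -0.14 (95% interval -0.49 to 0.21). Osteomodulin, with 7 to 29 reads per library in the HCN4F groups, was 0.318 to 0.955 CPM after TAC and 0.263 to 0.687 CPM in Sham. Its log2 fold change of 0.60 had an interval of -0.20 to 1.40, so that neither a rise of 2-fold nor no change lies outside it.

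TAC in WT hearts was accompanied by more asporin and less osteoglycin mRNA, and no other member passed the test. Asporin was at 1.52 times and osteoglycin at 0.681 times its Sham level. These 2 of 9 members had an edgeR adjusted p under 0.05, beside 4.54% of all tested genes (2.92% higher and 1.62% lower). No member was called with an absolute log2 fold change above 1, beside 0.706% of all genes, while 3 members had an unadjusted p under 0.05, beside 22% of all genes. DESeq2 called none either, beside 0.874%. Only 2 WT-TAC libraries enter this comparison, and the median log2 fold change of the members was -0.11 beside -0.02 for all genes.

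Asporin was 20.4 and 18.8 CPM in the WT-TAC libraries against 12.6, 13.2, 11.97 and 13.8 CPM in WT-Sham replicates 1 to 4. Both WT-TAC libraries were above all WT-Sham libraries, and the log2 fold change was 0.60 (standard error 0.13, edgeR adjusted p = 0.0236). Osteoglycin was 42.5 and 33.7 CPM in WT-TAC against 54.5, 54.3, 59.5 and 55.2 CPM in WT-Sham. It was below all WT-Sham libraries in both, and the log2 fold change was -0.56 (standard error 0.12, edgeR adjusted p = 0.0167). Asporin was no longer past the threshold without WT-TAC replicate 2 (adjusted p = 0.121), without WT-TAC replicate 3 (0.183) or without WT-Sham replicate 1 (0.0674, all by edgeR). Osteoglycin lost it without WT-TAC replicate 3 (log2 fold change -0.39, edgeR adjusted p = 0.284).

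Decorin was 213 and 187 CPM in WT-TAC against 242, 249, 251 and 261 CPM in WT-Sham. Both values were below the Sham range, but the log2 fold change of -0.33 (95% interval -0.57 to -0.09) had an edgeR adjusted p of 0.103. Biglycan was 192 and 187 CPM in WT-TAC against 162, 143, 148 and 162 CPM in WT-Sham, also without overlap. Its log2 fold change was 0.30 (interval -0.15 to 0.75, edgeR adjusted p = 0.421). When only the WT groups were fitted, decorin and biglycan also passed in edgeR and in DESeq2, which gave 4 members in place of 2, beside 13.6% of all genes in that edgeR fit and 14.8% in that DESeq2 fit.

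Prelp was 43.1 and 45.5 CPM in WT-TAC and 36.5, 42.3, 42.5 and 39.6 CPM in WT-Sham, with a log2 fold change of 0.14 (interval -0.22 to 0.50). Lumican was 25.2 and 21.3 CPM in WT-TAC and 19.6 to 23.8 CPM in WT-Sham, so that the groups overlapped. Fibromodulin was 0.575 and 0.458 CPM in WT-TAC, inside the WT-Sham range of 0.196 to 1.87 CPM. Its log2 fold change of -0.91 had an interval of -3.82 to 1.99, which holds a rise and a fall alike. There were 14 and 16 reads in WT-TAC and 6 to 49 in WT-Sham. In WT, 3 members were higher and 2 lower without overlap between the groups, beside 19.2% of all genes higher and 20% lower. In HCN4F it was 4 higher and 1 lower, beside 7.95% and 7.16%.

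**Figure D2:**
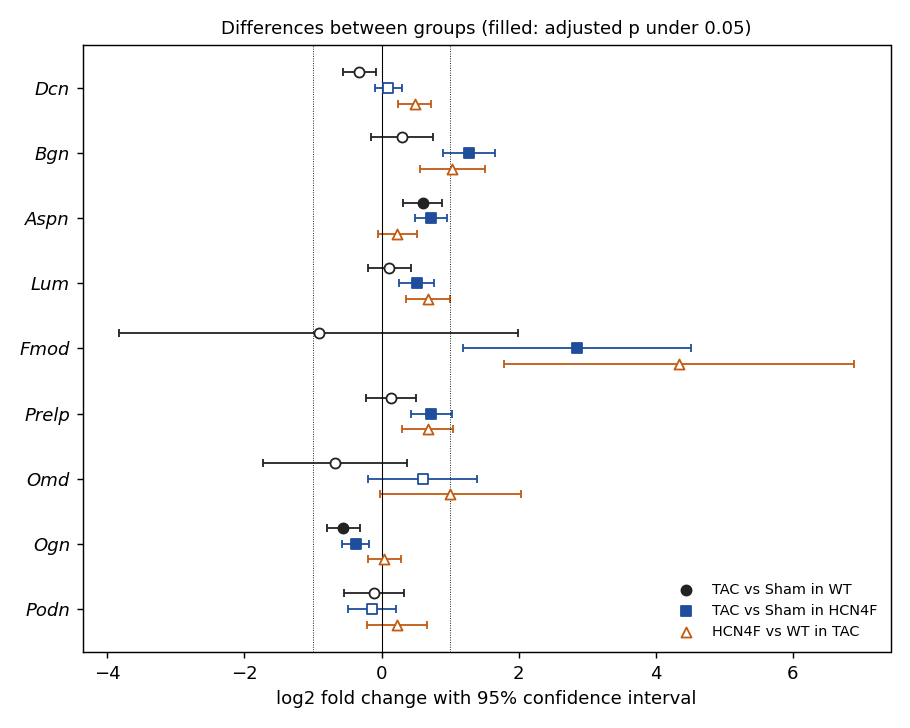
Log2 fold changes of each proteoglycan gene with 95% confidence intervals for TAC against Sham in WT (black circles) and in HCN4F (blue squares) and for HCN4F against WT after TAC (orange triangles). Filled symbols have an edgeR adjusted p under 0.05, and dotted lines mark a log2 fold change of 1 in either direction. Asporin and osteoglycin are filled in both genotypes, while biglycan, lumican, fibromodulin and Prelp are filled in HCN4F and open in WT, and no orange symbol is filled.

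After the Sham operation no difference between the genotypes was detected in these genes. No member had an adjusted p under 0.05, beside 0.471% of all tested genes, none was called, beside 0.209%, and 1 had an unadjusted p under 0.05, beside 15.2%. DESeq2 also gave 0 members, beside 2.52% of all genes with an adjusted p under 0.05 and 0.44% called. That gene was lumican, 25.1, 29.7, 27.01 and 22.7 CPM in HCN4F-Sham against 23.8, 19.6, 22.2 and 20.3 CPM in WT-Sham, with a log2 fold change of 0.28 (95% interval 0.02 to 0.54, edgeR adjusted p = 0.287). For decorin the difference was 0.05 (interval -0.14 to 0.25) and for biglycan 0.06 (-0.31 to 0.43). For fibromodulin the interval of -1.43 to 2.58 leaves changes of several-fold undetected at this depth and spread.

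The comparison of genotypes after TAC uses the same HCN4F-TAC libraries as the comparison with Sham. All 9 members had a higher mean in HCN4F than in WT hearts by the fitted log2 fold change, with a median of 0.67 beside 0.00 over all tested genes. Markers of several cell types also differed in level between these groups, none with an adjusted p under 0.05 in edgeR: 10 of 11 fibroblast markers (5 without overlap), 10 of 11 activated fibroblast markers (9 without overlap) and 7 of 7 macrophage markers (2 without overlap) were higher in HCN4F-TAC, and 8 of 8 cardiomyocyte markers (5 without overlap) were lower, where 11.3% of all genes were higher and 11% lower without overlap. Counted in either direction, 8 fibroblast, 10 activated fibroblast, 5 macrophage and 3 cardiomyocyte markers had an unadjusted p under 0.05 in edgeR, beside 12.5% of all genes. Macrophage markers summed to 125 to 208 CPM in HCN4F-TAC and to 124 and 127 CPM in WT-TAC, and the part of cell makeup in the proteoglycan values was not tested. In 5 members, Bgn, Dcn, Fmod, Lum and Prelp, all HCN4F-TAC libraries were above both WT-TAC libraries, beside 11.3% of all genes. None reached an adjusted p under 0.05 in edgeR, beside 0.111% of all genes, and none was called, beside 0.0719%. The same 5 had an unadjusted p under 0.05, as did 12.5% of all genes. DESeq2 gave an adjusted p under 0.05 for 5 members, which were these, beside 1.5% of all genes to which it gave one, and called 2, Bgn and Fmod, beside 0.561%.

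Biglycan was 2.05-fold higher in HCN4F-TAC (log2 fold change 1.03, 95% interval 0.56 to 1.51, edgeR adjusted p = 0.0999). Lumican was 0.68 higher on the log2 scale (interval 0.36 to 1.00, edgeR adjusted p = 0.0999), Prelp 0.67 (0.30 to 1.05, adjusted p = 0.139) and decorin 0.48 (0.24 to 0.72, adjusted p = 0.106). Fibromodulin differed by 4.34 (interval 1.79 to 6.89, edgeR adjusted p = 0.172). Without HCN4F-TAC replicate 3, whose values were the lowest of its group for all 9 members, these 5 passed the adjusted threshold in edgeR, with 0.000184 for biglycan, beside 2.97% of all genes in that fit. Without replicate 2 none did, and the adjusted p of biglycan was 0.227.

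The 2 genes that moved with TAC in both genotypes differed little between the TAC groups. Asporin differed by 0.23 on the log2 scale (95% interval -0.06 to 0.51) and osteoglycin by 0.04 (-0.20 to 0.28). Whether the response to TAC itself differed between genotypes was tested with the genotype by surgery interaction. No member and no gene of the table passed it in edgeR, 4 members had an unadjusted p under 0.05 (Bgn, Dcn, Fmod and Prelp) beside 9.27% of all genes, and DESeq2 gave 0 members, beside 0.284% of all genes. The interaction was 0.97 for biglycan on the log2 scale (interval 0.38 to 1.57, edgeR adjusted p = 0.418). Without HCN4F-TAC replicate 3, the lowest of its group for all 9 members, it was 1.15 with an edgeR adjusted p of 0.0115. In that fit 0.51% of all genes passed. Leaving out the lowest library raises the group mean, so this fit is no separate support. Over 20 alternative fits the interaction of biglycan ran from 0.83 to 1.15, and only this fit passed.

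The members changed unequally within a library. Decorin made up 45.8% of all reads on the 9 genes in WT-Sham (44.6% to 46.6%) and 45.8% in HCN4F-Sham (43.6% to 47.3%). After TAC its share was 38.0% in WT (37.3% and 38.6%) and 33.0% in HCN4F (30.3% to 38.6%). Biglycan took 28.1% in both Sham groups, 36.1% in WT-TAC (34.9% and 37.3%) and 44.5% in HCN4F-TAC (37.7% to 48.2%). Osteoglycin went from 10.2% to 7.22% in WT and from 8.94% to 4.66% in HCN4F.

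As a ratio of read counts, biglycan to decorin was 0.670, 0.574, 0.589 and 0.623 in WT-Sham and 0.592, 0.703, 0.582 and 0.581 in HCN4F-Sham. It was 0.904 and 0.998 in WT-TAC and 1.59, 1.54, 0.974 and 1.40 in HCN4F-TAC. Both TAC groups lay above all Sham libraries of either genotype, and HCN4F-TAC replicate 3 lay within the range of the WT-TAC pair. Asporin to osteoglycin was 0.201 to 0.250 in WT-Sham and 0.251 to 0.305 in HCN4F-Sham, against 0.481 and 0.559 in WT-TAC and 0.508 to 0.671 in HCN4F-TAC. These ratios do not depend on how the libraries are scaled. Ratios of lumican and Prelp to decorin and of fibromodulin to lumican were also computed. In the last, WT-TAC (0.0228 and 0.0215) lay within the WT-Sham range of 0.00968 to 0.0845. All ratios were chosen after the values were seen. In 20 permutation tests of the group labels, no Benjamini-Hochberg adjusted p was below 0.0953. With 2 WT-TAC libraries the unadjusted permutation p could not be below 0.0667.

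**Figure D3:**
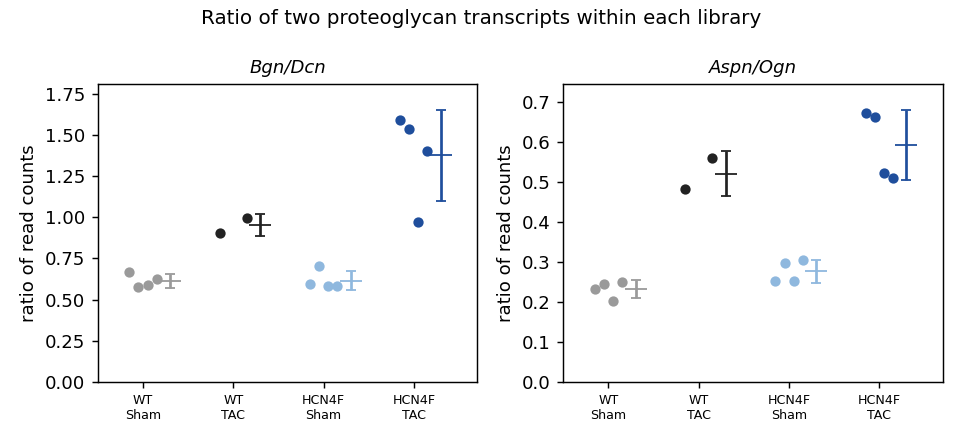
Ratio of biglycan to decorin reads (left) and of asporin to osteoglycin reads (right) in every library (points, linear axis from 0), with group mean and SD. The TAC libraries of both genotypes sit above all Sham libraries in both panels.

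The 9 transcripts summed to 535 to 564 CPM in WT-Sham, 494 to 650 in HCN4F-Sham, 501 and 551 in WT-TAC and 627 to 1027 CPM in HCN4F-TAC. HCN4F-TAC replicate 2 was the highest and replicate 3 the lowest of its group. Over the 14 libraries, biglycan ran most closely with Prelp (Pearson r = 0.95, log2 CPM), asporin (0.91) and lumican (0.91). Osteoglycin ran against asporin (r = -0.73) and biglycan (r = -0.57). After each group's mean was removed, all pairs were positively correlated, from 0.39 for lumican with fibromodulin to 0.88 for decorin with Prelp, and asporin with osteoglycin was at 0.42. These values are descriptive, and pairs share the library, its depth and the tissue piece.

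Among all tested genes with a mean of at least 1 CPM, the pattern of biglycan over the 14 libraries was most like those of Dbn1 (r = 0.98), Fstl1 (0.98) and Itgbl1 (0.98). Lumican was most like Dse (r = 0.97), the epimerase that makes dermatan from chondroitin sulfate, Emilin1 and Itih5. Prelp was most like Svep1 (r = 0.97), and asporin was most like Msn (0.95). Fibromodulin was most like Prelp (r = 0.92), its neighbour on the chromosome, and decorin was most like the complement genes Serping1 (0.93), C1s1 (0.91) and C1ra (0.90). Osteoglycin was most like Zfp334 (r = 0.91), osteomodulin was most like Timp2 (0.90), and podocan was most like Ighg2c (0.83). The mean of the 9 members ran close to Aebp1 (r = 0.96), Abi3bp (0.94) and Fbln5 (0.93). All these values are the highest found in a search over many genes with only 14 libraries. They include the differences between groups and carry no test.

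The collagens that these proteoglycans bind moved in the same libraries. In HCN4F hearts 10 of 11 genes of fibril, fibril-associated and type VI collagens rose with TAC by the edgeR adjusted p, with a median log2 fold change of 0.90, and in WT 0 of 11 did, with a median of 0.22 and 1 gene at an unadjusted p under 0.05. Without HCN4F-TAC replicate 2 or HCN4F-Sham replicate 2 it was also 10 of 11. Col12a1 had the largest change in HCN4F (1.98, adjusted p = 0.0022), followed by Col14a1 (1.23), Col1a1 (1.14) and Col5a2 (1.10, adjusted p = 8.2e-05). Col12a1 and Col14a1 are collagens that lie on the fibril surface, as the proteoglycans do. In WT the same 4 genes had log2 fold changes of 0.83, 0.33, 0.25 and 0.38, none with an adjusted p under 0.05. Summed CPM of the list was 877 to 900 in WT-Sham, 760 to 1103 in HCN4F-Sham, 897 and 1087 in WT-TAC and 1096 to 1935 in HCN4F-TAC.

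Of 14 ligands and receptors with which these proteoglycans interact, 6 rose with TAC in HCN4F (3 without HCN4F-TAC replicate 2, 5 without HCN4F-Sham replicate 2) and 2 in WT hearts, and none fell. Met, a receptor that decorin binds, rose in both genotypes, by 1.99 in WT (edgeR adjusted p = 0.00284) and 1.44 in HCN4F (adjusted p = 0.00104). Its mean was 0.588 CPM in WT-Sham, 2.32 in WT-TAC, 1.12 in HCN4F-Sham and 3.05 CPM in HCN4F-TAC. Tlr4, a receptor for free biglycan, rose by 0.74 in WT (adjusted p = 0.0325) and by 1.08 in HCN4F (adjusted p = 0.000324). Its co-receptor Cd14 rose by 0.63 in HCN4F (edgeR adjusted p = 0.017) and was at 0.46 in WT (adjusted p = 0.187). Tgfb2 rose by 1.21 in HCN4F (edgeR adjusted p = 0.000304) and was at 0.66 in WT (adjusted p = 0.0746).

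Of 20 tested enzymes that build or sulfate chondroitin and dermatan chains, 5 rose in HCN4F (3 without HCN4F-TAC replicate 2, 5 without HCN4F-Sham replicate 2) and 2 in WT, and none fell. Chsy3, a chondroitin synthase, rose by 1.33 in WT (edgeR adjusted p = 0.0289) and 1.09 in HCN4F (adjusted p = 0.0128), from 0.302 and 0.333 CPM in Sham to 0.787 and 0.706 CPM after TAC. Chst3, a chondroitin sulfotransferase, rose in HCN4F (0.70, adjusted p = 0.011) and was at 0.66 in WT (adjusted p = 0.0672). Xylt1, which starts the chain on the core protein, rose in HCN4F (0.52, edgeR adjusted p = 0.0376) and was at 0.46 in WT (adjusted p = 0.175). Chpf2, a chain-polymerizing factor, rose in WT (0.56, edgeR adjusted p = 0.0393) and was at 0.22 in HCN4F (adjusted p = 0.252). Of 4 tested enzymes of keratan sulfate chains, only B4galt1, a galactosyltransferase with wider roles, rose in WT (0.51, edgeR adjusted p = 0.0296). None rose in HCN4F, where 1 had an unadjusted p under 0.05, as did at least 13.6% of all genes.

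Of 15 tested proteases and processing factors, 7 rose in HCN4F (3 without HCN4F-TAC replicate 2, 7 without HCN4F-Sham replicate 2) and 1 in WT, and none fell. Adamts1, a protease that cleaves proteoglycans, rose in both, by 0.84 in WT (edgeR adjusted p = 0.0108) and 0.81 in HCN4F (adjusted p = 0.000844). Mmp3, a stromelysin that can cleave decorin, rose by 1.12 in HCN4F (edgeR adjusted p = 0.00206) and was at -0.60 in WT (adjusted p = 0.189). Ctsk, the collagenase cathepsin K, and Mmp2 rose by 0.80 and 0.53 in HCN4F. These lists were compared by counts alone, beside 7.20% (HCN4F) and 2.92% (WT) of all genes that rose. Without HCN4F-TAC replicate 2, 4.88% of all genes rose in HCN4F.

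Markers of fibroblasts, the cells that make these proteins, moved unevenly. In HCN4F 5 of 11 fibroblast markers rose with TAC and 2 fell, beside 7.20% of all genes higher and 6.41% lower, and in WT 0 rose, 1 fell and 2 had an unadjusted p under 0.05 in edgeR, beside 2.92% higher and 1.62% lower. These HCN4F counts were also 5 and 2 without either HCN4F-TAC replicate 2 or HCN4F-Sham replicate 2. The 5 include Col1a1, Col1a2 and Col3a1, which the collagen list also holds. Pdgfra and Tcf21 of this list had log2 fold changes of 0.10 and 0.06 in HCN4F (edgeR adjusted p = 0.503 and 0.786) and 0.11 and -0.15 in WT. Scara5 and Dpep1 were lower after TAC in HCN4F without overlap. Their means were 28.2 and 61.8 CPM in HCN4F-Sham and 11.9 and 43.6 CPM in HCN4F-TAC. In WT they were at -0.44 and -0.77 (edgeR adjusted p = 0.364 and 0.0134). Of 11 markers of activated fibroblasts, 10 rose in HCN4F with a median of 2.07 (9 without HCN4F-TAC replicate 2, 10 without HCN4F-Sham replicate 2). In WT 0 passed the adjusted threshold, and 2 had an unadjusted p under 0.05 in edgeR, counted in either direction. The log2 fold changes of these 11 markers ran from -0.58 to 1.29 in WT. Their summed CPM was 269 to 320 in WT-Sham, 209 to 323 in HCN4F-Sham, 271 and 279 in WT-TAC and 313 to 659 in HCN4F-TAC. Acta2 (smooth muscle actin), which smooth muscle also makes, held much of this sum, with a mean of 187 CPM in WT-Sham, 146 in HCN4F-Sham, 125 in WT-TAC and 116 CPM in HCN4F-TAC, and did not pass the test (edgeR adjusted p = 0.191 in WT and 0.294 in HCN4F). Without it the sums were 104.5 to 112 CPM in WT-Sham, 87.3 to 134 in HCN4F-Sham, 145 and 155 in WT-TAC and 189 to 590 CPM in HCN4F-TAC. The lowest HCN4F-TAC value was again that of replicate 3. Of both lists only Cthrc1 had no read in some libraries (1 of HCN4F-Sham and 1 of WT-Sham), and the part of fibroblast number or state in the proteoglycan changes was not tested.

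**Figure D4:**
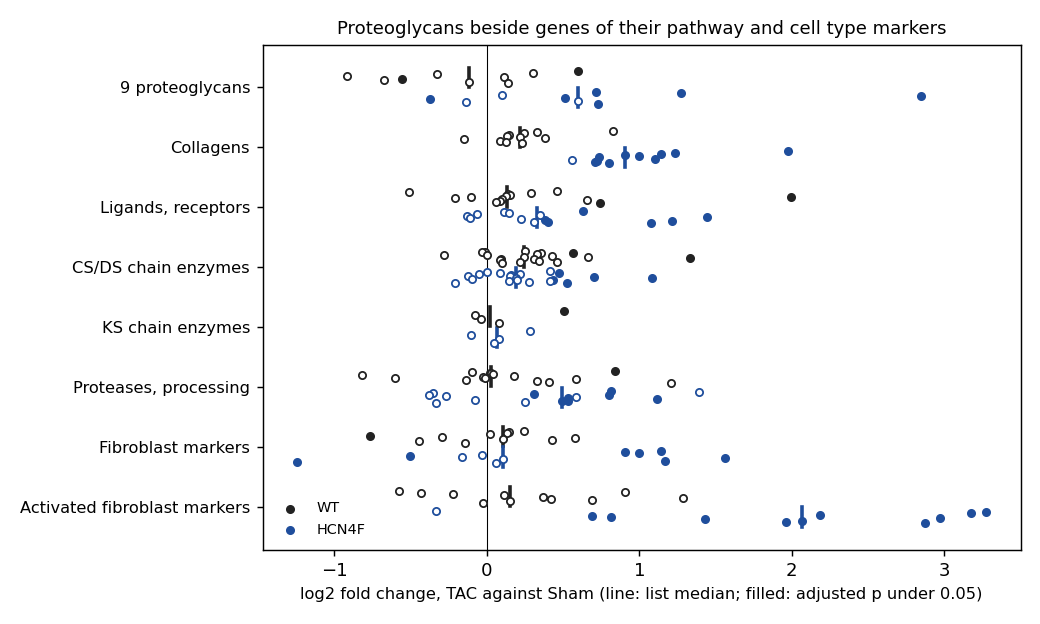
Log2 fold change of TAC against Sham for the 9 proteoglycans and for related gene lists in WT (black) and HCN4F (blue), where CS/DS is chondroitin and dermatan sulfate and KS is keratan sulfate. Each point is a gene, filled where the edgeR adjusted p is under 0.05, and the bars are list medians. Medians of the proteoglycans are -0.11 in WT and 0.60 in HCN4F, and those of activated fibroblast markers 0.15 and 2.07.

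Of 9 further members of the wider family, 5 had enough reads for the test. Tsku (tsukushi) rose with TAC in HCN4F, from 1.73 to 2.92 CPM in Sham to 3.36 to 4.54 CPM (log2 fold change 0.74, edgeR adjusted p = 0.00872). Chadl (chondroadherin-like) fell there, from 1.58 to 1.95 CPM in Sham to 0.823 to 1.20 CPM (-0.81, adjusted p = 0.0111). In WT hearts they were at 0.38 and -0.56 (edgeR adjusted p = 0.318 and 0.180). Ecm2, the neighbour of Aspn, was at 0.10 in HCN4F and -0.12 in WT, with intervals of -0.16 to 0.35 and -0.44 to 0.19. Nyx and Chad did not pass the test in either genotype, and Chad had its highest value, 1.94 CPM, in HCN4F-TAC replicate 2. Epyc, Optc and Podnl1 had too few reads to be tested and Kera had no read in any library, which allows up to 0.137 CPM.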

How the data were processed

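Left ventricular poly(A) RNA of 14 hearts was analysed. The authors deposited raw counts of reads per gene, without normalization. GRCm38 is the genome build in the submitters' processing notes, and the aligner, counting program, annotation and use of strand are not given in the sources used here. The study tested with DESeq2. In the count table, 2 more columns carry the names of no sample analysed here, and they were not used. Groups and replicate numbers came from the sample labels. WT-TAC was analysed with 2 of the 4 replicates of the design.

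Of 49315 genes, edgeR's filterByExpr by group kept 15292. Counts were TMM-scaled, and all groups were fitted in 1 model with edgeR 4.0.16 (R 4.3.3) using the robust quasi-likelihood test and p-values adjusted by Benjamini-Hochberg over the 15292 genes. Calls asked for a log2 fold change beyond 1 in either direction besides an adjusted p under 0.05. CPM carry no pseudocount, and correlations used log2 CPM with a prior count of 2. The steps were tested on simulated data. Between libraries of 1 group the chi-square per gene was 6.59 to 66.0, more than counting error gives.

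The members, the gene lists and the tests were chosen with earlier results of these data known. Named were all 9 members, every tested gene of the wider family, and up to 4 genes per pathway list with the largest absolute change among those past the adjusted threshold after TAC. For likeness the 3 closest genes to each member and the 5 closest to the members' mean were taken, some of which are not reported here. Other genes named, and the ratios, were chosen after their values were seen. Marker lists for endothelial, smooth muscle, macrophage, epicardial and Schwann cells were also counted. In HCN4F after TAC, 4 of 5 Schwann and 1 of 7 endothelial markers fell, beside 6.41% of all genes. None of the tested smooth muscle, macrophage or epicardial markers passed the edgeR test there. Of these, 0, 1 and 0 had an unadjusted p under 0.05, as did at least 13.6% of all genes. Of 8 cardiomyocyte markers 4 fell and 1 rose, and of 4 tested atrial markers 1 fell. In WT after TAC, 2 of 8 cardiomyocyte markers fell, beside 1.62% of all genes, and no Schwann, endothelial, smooth muscle, macrophage, epicardial or atrial marker passed the edgeR test, where 2 smooth muscle markers and 0 of the others had an unadjusted p under 0.05. Without HCN4F-TAC replicate 2, no endothelial or cardiomyocyte marker rose, 0 endothelial and 3 cardiomyocyte markers fell, and the Schwann count was again 4. Without HCN4F-Sham replicate 2, no endothelial marker rose or fell, 0 cardiomyocyte markers rose and 4 fell, and 4 Schwann markers fell.

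Gene models were those of GENCODE release M21 on GRCm38, with length taken as the union of exons. Promoters came from RefSeq on GRCm38.p6. The main model has no replicate block. Alternatives were non-robust estimation, glmTreat, DESeq2 1.42.0 with either all or only the compared groups, edgeR limited to the compared groups, size factors from DESeq2, no filter, a minimum mean CPM of 1, the replicate number as a block, and each library left out. Counts of listed genes without HCN4F-TAC replicate 2 or HCN4F-Sham replicate 2 were added after the data were seen. Python 3.11.15 with matplotlib 3.10.9 made the figures.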

Additional observations from a re-analysis of the deposited data

How the results depend on the processing

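The 9 members' log2 fold changes kept direction and side of the threshold in 318 of 337 values under other settings and in 353 of 378 with a library left out. The exceptions concern mostly the comparison between the TAC groups, the fibromodulin call and the WT comparison with its 2 TAC libraries, and their cause was not tested. For TAC in WT, 2 members had an adjusted p under 0.05, and 4 did in edgeR or DESeq2 on the compared groups. With a library left out this was 0 to 2, with 0 without WT-TAC replicate 3 and 1 (Ogn) without WT-TAC replicate 2 or WT-Sham replicate 1. For TAC in HCN4F, 2 members were called (Bgn and Fmod), 1 (Bgn) in edgeR on the compared groups or with no filter, 0 with glmTreat, and 1 to 2 with a library left out. Between the TAC groups, 0 members were called, and 2 in DESeq2 on all or on the compared groups (beside 0.561% and 0.49% of all genes), with 0 to 2 for left-out libraries. The number with an adjusted p under 0.05 there was 0, 5 in both DESeq2 fits (beside 1.5% and 1.23%), 2 (Dcn and Lum) with no filter (beside 0.49%), and 0 to 5 with a library left out, of which only the fit without HCN4F-TAC replicate 3 gave any. For the interaction it was 0, and 0 to 1 with a library left out (Bgn without HCN4F-TAC replicate 3).

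Values near 0 turned sign. For TAC in WT these were lumican (-0.0071 without WT-TAC replicate 2, up to 0.23 without replicate 3) and podocan (-0.59 and 0.27 without WT-TAC replicates 2 and 3). Between the Sham groups they were biglycan (-0.059 to 0.13) and Prelp (-0.0060 to 0.18), both lowest without HCN4F-Sham replicate 2 and highest without replicate 1. Between the TAC groups they were osteoglycin (-0.04 without HCN4F-TAC replicate 4, -0.12 and 0.21 without WT-TAC replicates 3 and 2) and podocan (-0.16 and 0.70 without WT-TAC replicates 3 and 2). The interaction of podocan was -0.03 and ranged from -0.41 to 0.45 with a library left out, positive without HCN4F-Sham replicate 3, HCN4F-TAC replicate 1 or 3, or WT-TAC replicate 2.

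With the replicate number as a replicate block, podocan's interaction was 0.071, and no count of members moved. By edgeR, 2 members after TAC in WT and 6 in HCN4F had an adjusted p under 0.05. The share of all genes that passed is not given for this fit, nor for most fits with a library left out. Same-numbered libraries share only a number: their deviations from the group means correlated at -0.12 to 0.16 over 18 pairs, and 5 of 14 libraries correlated best with one of their own number. The interaction needs all groups and has no value on the compared groups, and osteomodulin has no value with a mean CPM of at least 1. With 2 WT-TAC libraries the spread is mostly that of the other groups, and a WT-TAC library left alone is assumed to vary like them. Osteomodulin had 7 to 29 and fibromodulin 6 to 573 reads per library, and the parts of depth and of spread between animals in their intervals were not tested.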
